A study of Mus musculus with 10 samples.

Results

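Genes of the lymphatic and blood vessels of the small intestine were followed in jejunum RNA sequencing counts, 10 in all: Vegfa, Vegfc, Flt4, Kdr, Prox1, Lyve1, Pecam1, Cdh5, Plvap and Vwf. They were taken as a named list of lacteal, endothelial and lymphatic growth factor genes, and all 10 were found among the 55414 gene identifiers of the files. Jejunum of male C57BL/6J mice was sequenced in 10 libraries, 5 labelled RetSat ko and 5 labelled control. RetSat ko carried RetSat flox/flox with villin-Cre-ERT2 (+), and control carried RetSat flox/flox with villin-Cre-ERT2 (-). All mice were given tamoxifen over 5 days, followed by 14 weeks on a high-fat diet (60 kcal% fat), so floxed alleles, tamoxifen and diet are common to both. The villin promoter directs the tamoxifen-inducible Cre recombinase to the intestinal epithelium, so that endothelial cells are not its target. Ages are not given in the sources used here, and no library of Cre-carrying mice without floxed alleles was part of the comparison, so loss of retinol saturase and presence of Cre cannot be told apart.

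A lacteal is the blind-ended lymphatic capillary in the core of each villus, and it takes up the chylomicrons that enterocytes make from dietary fat. Its endothelium depends on the growth factor VEGF-C, which acts through the receptor tyrosine kinase VEGFR3, and on the transcription factor PROX1, which sets lymphatic identity. Around it lies a dense net of fenestrated blood capillaries that depends on VEGF-A and its receptor VEGFR2 and that carries away sugars and amino acids. In bulk tissue, fewer cells of a type and less RNA per cell cannot be told apart.

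The ligand and receptor genes are shown with the bases just before their transcription start, because their levels are set against each other in what follows. Promoter sequences were found for 5 of the 10 genes in the RefSeq table used here (GRCm38.p6, an older build than that of the counts), namely Vegfa, Vegfc, Flt4, Kdr and Prox1. Printed are the 250 bases upstream of the first listed start site of 4 of them, read 5′ to 3′ on the gene's strand. Capitals mark 3 motifs searched on both strands: AGGAA, the core of ETS factor sites, ACGTG, the core of hypoxia-inducible factor sites, and CCGCCC, the GC box bound by Sp1.
Vegfa (chr17:46032378-46032627, minus strand): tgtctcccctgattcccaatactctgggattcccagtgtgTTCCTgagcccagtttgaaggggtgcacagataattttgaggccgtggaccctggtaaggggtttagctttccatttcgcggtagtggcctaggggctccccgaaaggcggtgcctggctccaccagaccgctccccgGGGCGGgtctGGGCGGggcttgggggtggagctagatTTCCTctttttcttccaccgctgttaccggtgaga
Vegfc (chr8:54077282-54077531, plus strand): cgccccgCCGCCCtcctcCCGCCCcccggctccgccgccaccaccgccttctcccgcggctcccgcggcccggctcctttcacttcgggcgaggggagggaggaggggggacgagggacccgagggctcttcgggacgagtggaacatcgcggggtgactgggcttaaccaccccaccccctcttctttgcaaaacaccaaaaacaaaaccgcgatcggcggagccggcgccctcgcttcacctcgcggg
Flt4 (chr11:49609429-49609678, plus strand): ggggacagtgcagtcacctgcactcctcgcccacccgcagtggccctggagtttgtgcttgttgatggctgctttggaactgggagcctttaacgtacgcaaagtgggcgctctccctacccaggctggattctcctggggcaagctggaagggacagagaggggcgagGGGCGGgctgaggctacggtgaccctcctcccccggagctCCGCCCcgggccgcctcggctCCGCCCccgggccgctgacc
Kdr (chr5:75978456-75978705, minus strand): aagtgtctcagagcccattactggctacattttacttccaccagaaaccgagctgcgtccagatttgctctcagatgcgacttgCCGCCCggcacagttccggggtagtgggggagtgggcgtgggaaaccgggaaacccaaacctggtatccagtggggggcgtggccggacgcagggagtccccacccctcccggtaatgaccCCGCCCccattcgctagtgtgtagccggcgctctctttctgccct
The GC box occurred in each of the 4 windows, in 2 copies in Vegfa, Vegfc and Kdr and 3 copies in Flt4, and 32.7% of 32851 mouse promoter windows of that length hold it. The ETS core occurred in 2 copies in the Vegfa window and in 0 copies in the other 3, against a share of 60.3% over all windows. The hypoxia-inducible factor core occurred in 0 of the 4 windows and in 16.6% of all windows. It occurred in 1 copy before the other listed start site of Vegfa (chr17:46025164-46025413), a window downstream of the first start site. A match describes letters and does not show binding.

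Total counts per library lay between 102844680 and 128730695. Retsat, the targeted gene, averaged 19.6 ± 7.76 CPM (counts per 1000000 counts of the TMM-adjusted library) in RetSat ko and 440.6 ± 101 CPM in control (SD, n = 5 each). The labels do not state that each library came from another animal, and a p-value here reflects only how these samples spread, which may be technical. The library RetSat ko 1 stood apart in endothelial transcripts: it was the lowest of all 10 libraries for 8 of the 10 genes, and it was the lowest for 18.5% of the 11256 tested genes with a mean of 1 to 100 CPM. Its Retsat level, 16.8 CPM, lay within the 15.4 to 33.4 CPM of the other RetSat ko libraries. Results are therefore given with and without it. Pancreatic acinar transcripts were highest in RetSat ko 2, RetSat ko 1, control 5 and control 4, and B cell transcripts in RetSat ko 2, control 4 and RetSat ko 3; hepatocyte transcripts were highest in RetSat ko 5. The lymphatic marker podoplanin (Pdpn) was at 2.53 to 5.04 CPM in RetSat ko and 3.44 to 4.17 CPM in control, and the endothelial receptor gene Tek at 2.53 to 5.48 CPM in RetSat ko and 3.88 to 5.32 CPM in control, so markers of both vessel types were detected in every library.

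The comparison asks whether vessel genes of the jejunum differ between the genotypes. Vwf, the gene of the clotting protein von Willebrand factor, had its 5 RetSat ko values below its 5 control values, and the other 9 genes overlapped between the genotypes. With all 10 libraries, edgeR's quasi-likelihood test called 0 of the 10 genes at an adjusted p under 0.05. It called 0.0322% of all 18654 tested genes, 0.0214% as higher and 0.0107% as lower in RetSat ko. At an unadjusted p under 0.05 the count was 1 of 10 genes, Vwf, against 12.2% of all tested genes (6.79% higher and 5.45% lower), so 1 of 10 is near the background. DESeq2 called 1 of the 10, again Vwf (adjusted p = 0.0366), and it called 123 (0.659%) of the 18654 genes, against 6 in edgeR. Of the 10 log2 fold changes 4 were positive and 6 negative, with a median of -0.02 against 0.02 over all tested genes. Apart from Vwf, the edgeR adjusted p lay between 0.713 and 0.984, which does not show that those genes were equal, and the 95% intervals give the range that the data allow.

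**Figure D1:**
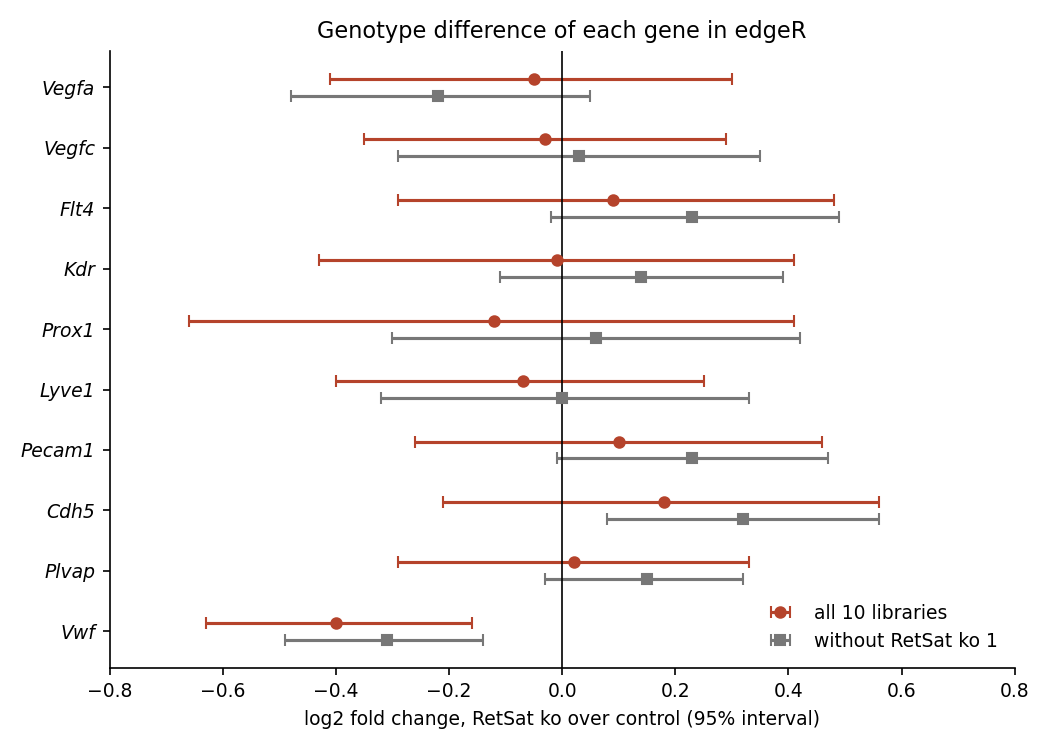
Log2 fold change of RetSat ko over control (x axis) with its 95% interval for each gene (rows) in edgeR, with all 10 libraries (circles) and without RetSat ko 1 (squares). Vwf has an interval below 0 in both fits (-0.63 to -0.16 and -0.49 to -0.14), and Cdh5 has one above 0 without RetSat ko 1 (0.08 to 0.56). RetSat ko 1 was left out because of its low endothelial values, so the upward moves follow from that choice.

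Among the growth factors, Vegfa (ENSMUSG00000023951.19, chromosome 17, 46327919 to 46343295, GRCm39) encodes VEGF-A, the main driver of blood vessel growth and permeability. It was at 79.6, 41.0, 62.0, 46.0 and 50.2 CPM in RetSat ko 1 to 5, against 60.7, 49.6, 65.7, 54.2 and 59.4 CPM in control 1 to 5. The RetSat ko values spread on both sides of the control values, with the highest and the lowest of all 10 libraries in RetSat ko 1 and RetSat ko 2. The log2 fold change was -0.05 ± 0.163 (SE, 95% interval -0.41 to 0.30, edgeR adjusted p = 0.915). Vegfc (ENSMUSG00000031520.7, chromosome 8, 54530641 to 54640131), which encodes the lymphatic growth factor VEGF-C, was at 3.67, 3.51, 4.17, 5.39 and 5.42 CPM in RetSat ko 1 to 5, against 4.78, 4.63, 5.10, 4.13 and 3.96 CPM in control 1 to 5. RetSat ko 4 and RetSat ko 5 lay above every control library, and RetSat ko 1 and RetSat ko 2 below every one of them. Its log2 fold change was -0.03 ± 0.147 (SE, 95% interval -0.35 to 0.29, edgeR adjusted p = 0.955). On the linear scale these intervals run from 0.75-fold to 1.23-fold for Vegfa and from 0.79-fold to 1.22-fold for Vegfc.

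Of the receptors, Flt4 (ENSMUSG00000020357.4, chromosome 11, 49500090 to 49543566) encodes VEGFR3, the VEGF-C receptor of lymphatic endothelium. It was at 2.63, 4.85, 4.13, 5.37 and 5.08 CPM in RetSat ko 1 to 5, against 4.75, 4.39, 3.65, 4.13 and 3.75 CPM in control 1 to 5. Kdr (ENSMUSG00000062960.11, chromosome 5, 76093487 to 76139118) encodes VEGFR2, the VEGF-A receptor of both vessel types, and was at 4.88, 8.36, 10.7, 11.3 and 9.77 CPM in RetSat ko 1 to 5, against 8.11, 9.46, 8.04, 9.20 and 10.7 CPM in control 1 to 5. For both receptors RetSat ko 1 was the lowest of the 10 libraries, at 63.5% of the control mean for Flt4 and 53.6% for Kdr. The log2 fold changes were 0.09 ± 0.177 for Flt4 (SE, 95% interval -0.29 to 0.48) and -0.01 ± 0.192 for Kdr (SE, 95% interval -0.43 to 0.41), with edgeR adjusted p of 0.856 and 0.984. The sign of Kdr changed with upper-quartile factors and with sample weights, and that of Flt4 without RetSat ko 4 and RetSat ko 5 together.

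For the genes of lymphatic identity the ranges of the genotypes overlapped. Prox1 (ENSMUSG00000010175.14, chromosome 1, 189850232 to 189902911), the transcription factor that sets lymphatic fate and that some enteroendocrine cells and hepatocytes also express, was at 0.490, 1.06, 1.3, 1.3 and 1.23 CPM in RetSat ko 1 to 5, against 1.17, 1.14, 1.5, 0.958 and 1.12 CPM in control 1 to 5. RetSat ko 1, at 41.6% of the control mean, lay apart from the other 9 libraries, and its value rests on 50 reads (exact 95% Poisson interval 37.1 to 65.9, counting error only). Lyve1 (ENSMUSG00000030787.5, chromosome 7, 110449814 to 110462446), the hyaluronan receptor of lymphatic capillaries that some macrophages also carry, was at 7.38, 8.21, 8.85, 11.9 and 10.7 CPM in RetSat ko 1 to 5, against 10.5, 8.12, 12.5, 9.95 and 8.44 CPM in control 1 to 5. Each genotype thus had libraries near 8 CPM and libraries above 10 CPM. The log2 fold changes were -0.12 ± 0.247 for Prox1 (SE, 95% interval -0.66 to 0.41) and -0.07 ± 0.151 for Lyve1 (SE, 95% interval -0.40 to 0.25), with edgeR adjusted p of 0.867 and 0.868. The Prox1 exons share 133 bases with Prox1os on the opposite strand, which averaged 0.008 CPM; the exons of the other 9 genes overlap no other gene in the files.

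Of the genes of all or of blood endothelium, Pecam1 (ENSMUSG00000020717.20, chromosome 11, 106545043 to 106641454) encodes the adhesion protein CD31 at the contacts between endothelial cells. It was at 9.44, 19.1, 15.7, 16.8 and 15.3 CPM in RetSat ko 1 to 5, against 12.6, 13.2, 13.3, 17.8 and 14.5 CPM in control 1 to 5. Pecam1 was highest in RetSat ko 2 and control 4, which were also the highest in B cell transcripts. Its rank correlation with the summed B cell list was rho = 0.77 (permutation adjusted p = 0.19). The part of B cells in its values was not tested. Cdh5 (ENSMUSG00000031871.10, chromosome 8, 104828257 to 104871143), which encodes VE-cadherin, the adherens junction protein of endothelium, was at 3.13, 5.41, 6.07, 5.98 and 6.48 CPM in RetSat ko 1 to 5, against 4.49, 4.66, 4.45, 5.87 and 4.5 CPM in control 1 to 5. In both genes RetSat ko 2 to 5 lay above at least 4 of the 5 control libraries, while RetSat ko 1 lay below all of them. Plvap (ENSMUSG00000034845.7, chromosome 8, 71950409 to 71964396), which encodes the diaphragm protein of fenestrated capillaries, was at 23.8, 40.6, 40.1, 41.6 and 39.9 CPM in RetSat ko 1 to 5, against 33.1, 34.3, 34.0, 41.7 and 40.4 CPM in control 1 to 5. RetSat ko 2 to 5 held a narrow band at the top of the control range. The log2 fold changes were 0.10 ± 0.164 for Pecam1 (SE, 95% interval -0.26 to 0.46), 0.18 ± 0.177 for Cdh5 (SE, 95% interval -0.21 to 0.56) and 0.02 ± 0.141 for Plvap (SE, 95% interval -0.29 to 0.33), with edgeR adjusted p of 0.836, 0.713 and 0.966.

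Vwf (ENSMUSG00000001930.18, chromosome 6, 125523737 to 125663642) encodes the multimeric protein that endothelial cells and platelets store and release to bind platelets at an injury. It was at 5.32, 6.46, 7.63, 7.59 and 7.78 CPM in RetSat ko 1 to 5, against 9.33, 9.38, 8.48, 9.27 and 9.35 CPM in control 1 to 5. The groups did not overlap, and 0.729% of all tested genes were likewise lower in RetSat ko without overlap, while 1.58% were higher without overlap. The mean was 6.96 ± 1.06 CPM in RetSat ko and 9.16 ± 0.383 CPM in control (SD, n = 5 each), which is 75.9% of the control mean. The log2 fold change was -0.40 ± 0.109 (SE, 95% interval -0.63 to -0.16), with an unadjusted p of 0.00326 and an adjusted p of 0.291 in edgeR. It did not pass the threshold in edgeR or limma-voom with all 10 libraries, and it passed in DESeq2 (log2 fold change -0.41, adjusted p = 0.0366). Platelet genes, which share Vwf's other known source, summed to 3.06 to 3.51 CPM over 6 genes in RetSat ko and 2.55 to 3.71 CPM in control, and Pf4 averaged 1.51 ± 0.354 CPM in RetSat ko and 1.27 ± 0.163 CPM in control (SD, n = 5 each).

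**Figure D2:**
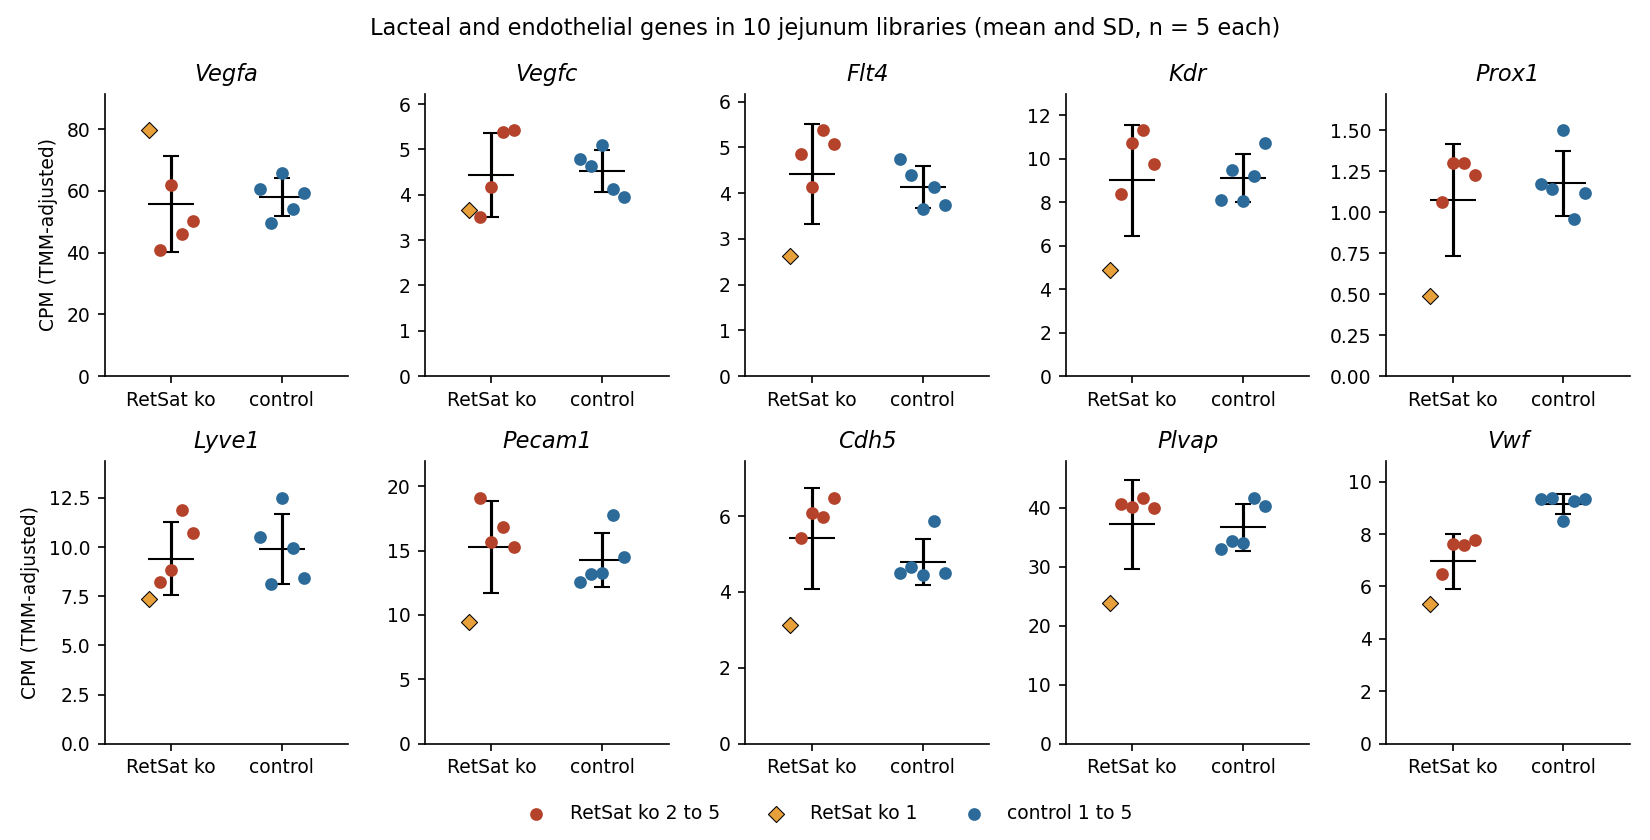
CPM of each gene (y axes, one panel per gene, from 0) in the RetSat ko libraries (left) and the control libraries (right); points are libraries, the diamond is RetSat ko 1, and bars are mean and SD (n = 5 each). Only the Vwf panel has no overlap between the genotypes (5.32 to 7.78 CPM in RetSat ko and 8.48 to 9.38 CPM in control), and RetSat ko 1 is the lowest point in 8 of 10 panels.

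Without RetSat ko 1, the log2 fold changes of all the genes but Vegfa moved upward, and Vwf stayed below 0. RetSat ko 1 lay below every control library for 9 of the 10 genes and above all of them for Vegfa. It was singled out for such values, so the direction of these moves follows from that choice. The p-values of the fit without RetSat ko 1 are given as a description. In that fit 2 of the 10 genes had an unadjusted p under 0.05 in edgeR, Cdh5 with a log2 fold change of 0.32 ± 0.109 (SE, adjusted p = 0.107) and Vwf with -0.31 ± 0.0796 (SE, adjusted p = 0.0506), and 0 passed the adjusted threshold. Over all 19001 genes of that fit 23.7% had an unadjusted p under 0.05 and 846 (4.45%) passed the adjusted threshold, so 2 of 10 is no more than the background. Pecam1 had 0.23 ± 0.109, Flt4 0.23 ± 0.116, Plvap 0.15 ± 0.0781, Kdr 0.14 ± 0.113 and Vegfa -0.22 ± 0.119 (log2 fold change ± SE), with adjusted p from 0.233 to 0.485. Vegfc, Prox1 and Lyve1 lay at 0.03, 0.06 and 0.00 on the same scale. Vegfc, Kdr, Prox1 and Lyve1 thus changed sign without RetSat ko 1; Vegfc and Lyve1 also did so without control 3, Kdr without control 5, and Vegfc and Kdr without RetSat ko 2. Leaving out the 4 libraries highest in acinar transcripts, RetSat ko 1 among them, kept only RetSat ko 3 to 5 and control 1 to 3. That fit put 5 of the 10 genes at an unadjusted p under 0.05 in edgeR, against 16.3% of its 18944 genes. Their log2 fold changes in edgeR were 0.26 for Plvap (adjusted p = 0.169), 0.45 for Cdh5 (adjusted p = 0.176), 0.29 for Pecam1 (adjusted p = 0.197), 0.31 for Kdr (adjusted p = 0.243) and -0.24 for Vwf (adjusted p = 0.282). None of the 10 passed the adjusted threshold there, where 0.0264% of all genes did. For Plvap, that fit left out control 4 and control 5, the highest of control, together with RetSat ko 1, the lowest of all libraries. The count of 5 thus depends on which libraries were left out and is a description.

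Vwf was also set against 4 other endothelial genes within each library. These ratios were chosen after the values were seen and are given as a description, with no test. Vwf over Cdh5 was 1.70, 1.20, 1.26, 1.27 and 1.20 in RetSat ko 1 to 5, against 2.08, 2.01, 1.91, 1.58 and 2.08 in control 1 to 5. RetSat ko 2 to 5 lay below every control library, and RetSat ko 1 lay between control 4 and the other control libraries. Vwf over Pecam1 was 0.469 ± 0.0837 in RetSat ko and 0.651 ± 0.0846 in control, Vwf over Plvap was 0.190 ± 0.0231 in RetSat ko and 0.252 ± 0.0259 in control, and Vwf over Kdr was 0.808 ± 0.166 in RetSat ko and 1.02 ± 0.101 in control (SD, n = 5 each). In each of these ratios RetSat ko 1 was the highest of the RetSat ko libraries and overlapped the control range.

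**Figure D3:**
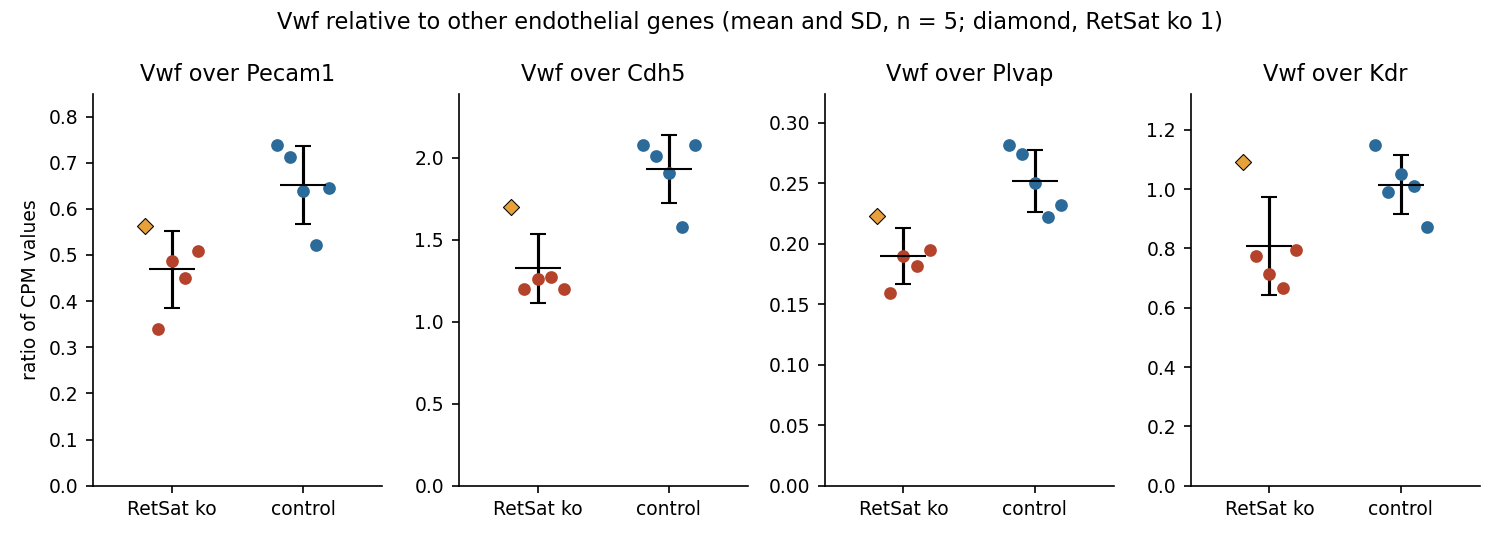
Ratio of Vwf CPM to the CPM of 4 other endothelial genes (y axes, from 0) in the RetSat ko libraries (left) and the control libraries (right); points are libraries, the diamond is RetSat ko 1, and bars are mean and SD (n = 5 each). RetSat ko 2 to 5 lie below every control library in all 4 panels, as in Vwf over Cdh5 (1.20 to 1.27 in RetSat ko 2 to 5 and 1.58 to 2.08 in control).

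The levels of the genes relative to each other were compared per length, as CPM per 1000 bases of exon. Plvap was highest, at 18.7 ± 3.78 in RetSat ko and 18.5 ± 2.04 in control, followed by Vegfa with 13 ± 3.61 in RetSat ko and 13.5 ± 1.45 in control (SD, n = 5 each). Lyve1, Pecam1 and Vegfc followed with means of 1.81 to 3.22 in RetSat ko and 1.85 to 3.39 in control. In control, neighbours in this order overlapped between Lyve1 and Pecam1, between Pecam1 and Vegfc, between Cdh5 and Kdr and between Vwf and Flt4, and were separate elsewhere. In RetSat ko, neighbours were separate between Vegfa and Lyve1 and between Vwf and Prox1, and overlapped elsewhere. Cdh5 (1.29 in RetSat ko, 1.14 in control) and Kdr (0.998 in RetSat ko, 1.01 in control) were followed by Flt4 (0.536 in RetSat ko, 0.502 in control) and Vwf (0.433 in RetSat ko, 0.570 in control). Flt4 had the higher mean in RetSat ko and Vwf in control, although the values of these neighbours overlapped within each genotype. Prox1 was lowest, at 0.128 ± 0.0409 in RetSat ko and 0.140 ± 0.0234 in control (SD, n = 5 each). The lymphatic ligand Vegfc exceeded its receptor gene Flt4 in every library of both genotypes.

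**Figure D4:**
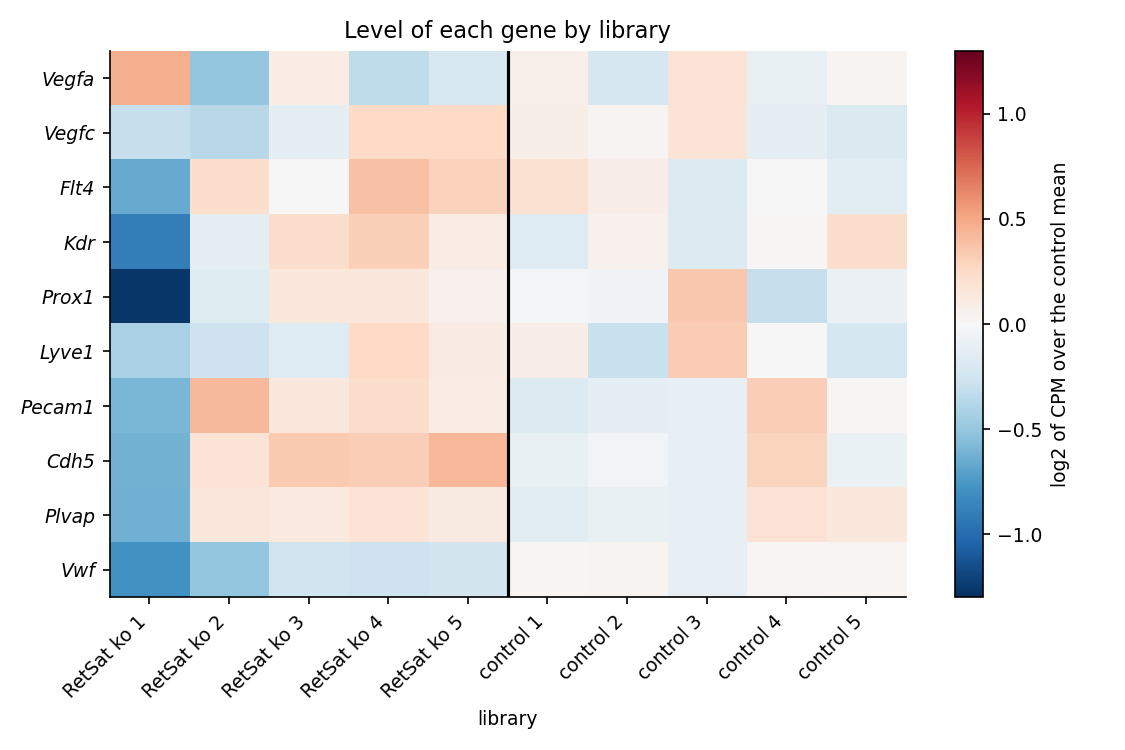
Level of each gene (rows) in each library (columns, RetSat ko left of the line and control right of it) as log2 of its CPM over the mean of the control libraries; red is higher and blue lower. RetSat ko 1 is blue for every gene but Vegfa, and the Vwf row is blue across all 5 RetSat ko libraries.

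The coefficient of variation of the genes was 15.2 to 31.8% over the RetSat ko libraries and 4.18 to 17.9% over the control libraries, and it was the higher in RetSat ko for all 10 genes. That direction rests on RetSat ko 1 for 6 of them: over RetSat ko 2 to 5 the coefficient was above that of control for 4 genes (Vegfa, Vegfc, Kdr and Vwf) and below it for 6, as in Plvap (1.87% in RetSat ko 2 to 5, 11% in control) and Cdh5 (7.37% in RetSat ko 2 to 5, 12.6% in control). Over the 10 libraries, 9 of 45 pairs of genes had a correlation of log2 CPM past an adjusted p of 0.05 (permutation test, 100000 resamples, two-sided, Benjamini-Hochberg over the 45 pairs), 7 positive and 2 negative. Pecam1 and Plvap varied most closely, with r = 0.93 (permutation adjusted p = 0.0058) and rho = 0.92, and r = 0.92 without RetSat ko 1 and RetSat ko 2, the 2 libraries farthest from the median of Pecam1. Vegfc and its lymphatic companion Lyve1 had r = 0.82 (permutation adjusted p = 0.035) and rho = 0.79, with r = 0.84 without RetSat ko 2 and RetSat ko 5. Vegfa ran opposite to Flt4, with r = -0.85 (permutation adjusted p = 0.029) and rho = -0.83, and r = -0.76 without RetSat ko 1 and RetSat ko 2. For each pair, the 2 libraries farthest from the median of 1 gene were left out, the gene that comes first in the opening list. Then 1 of 45 pairs stayed past the adjusted threshold, Pecam1 with Plvap. With values centred within each genotype 10 pairs passed. Kdr with Plvap had r = 0.90, and 0.57 without RetSat ko 1 and RetSat ko 4, so that relation rests on those libraries. By rank correlation 1 of 45 pairs passed, again Pecam1 with Plvap (permutation adjusted p = 0.026); Vegfc with Lyve1 and Vegfa with Flt4 each had an adjusted p of 0.097 by rank and 0.27 without the 2 libraries.

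**Figure D5:**
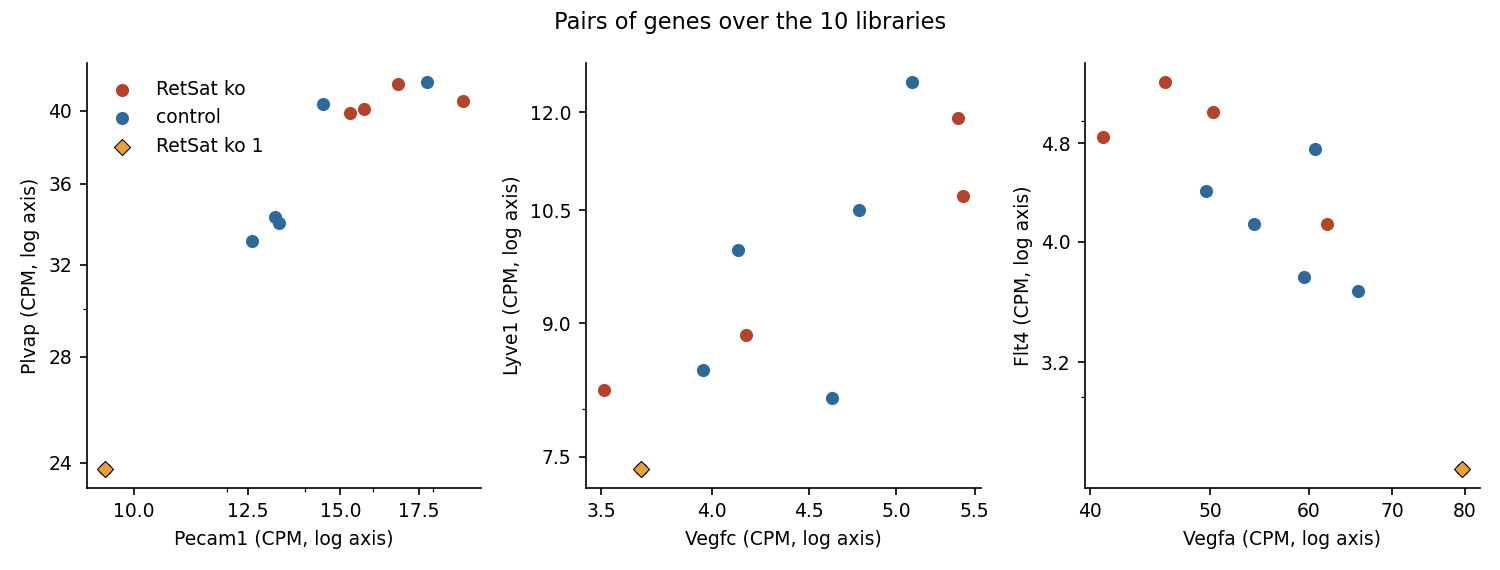
CPM of one gene against another over the 10 libraries (both axes logarithmic), with RetSat ko in red, control in blue and RetSat ko 1 as a diamond. Pecam1 and Plvap rise together (r = 0.93), as do Vegfc and Lyve1 (r = 0.82), while Flt4 falls as Vegfa rises (r = -0.85).

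Set against 14 marker lists, each summed per library, 5 of 140 correlations with the genes passed an adjusted p of 0.05 (permutation test, 100000 resamples, Benjamini-Hochberg over the 140). They were the blood endothelium list with Plvap (r = 0.96), Pecam1 (r = 0.94) and Cdh5 (r = 0.92), the fibroblast list with Cdh5 (r = 0.92) and the macrophage list with Plvap (r = 0.83), each with a permutation adjusted p of 0.025. By rank, and without the 2 libraries farthest from the median of the summed list, 0 of the 140 passed. With values centred within each genotype 14 passed. The genes most alike to Cdh5 among 13226 other genes of at least 1 CPM, by Pearson r over the 10 libraries, were Gprc5b (0.953), Slc48a1 (0.948), Col4a1 (0.946), a chain of basement membrane collagen, Cav2 (0.944), a caveolar coat protein gene, and Ccdc77 (0.944). Those most alike to Lyve1 were Lrp4 (0.954), Ints2 (0.938), Plbd1 (0.935), Nif3l1 (0.933) and Bmp3 (0.929). Those most alike to Vegfa were Serpinb6a (0.953), Snx3 (0.950), Arpc1a (0.943), the immediate early gene Fos (0.937) and the epithelial adhesion gene Epcam (0.934). The highest of 13226 correlations over 10 libraries are large by selection, and no test was run on them. The summed absorptive enterocyte list had r = 0.75 with Vegfa and -0.79 with Cdh5 (permutation adjusted p = 0.083 and 0.076; rho = 0.77 and -0.82; r = 0.61 and -0.82 without RetSat ko 1 and control 3). Centred within genotype the values were r = 0.81 and -0.82, each with a permutation adjusted p of 0.044. The list spanned 33658.8 to 51696.6 CPM in RetSat ko and 38210.0 to 58073.8 CPM in control, with RetSat ko 1 highest among RetSat ko; its part in the result was not tested.

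Other genes of the same vessels were counted from lists. Of 26 further blood endothelial genes, all tested, 21 had a positive log2 fold change (median 0.11), 0 passed the adjusted threshold in edgeR, 3 had an unadjusted p under 0.05, and 21 were lowest in RetSat ko 1. Of all tested genes 53.9% were positive. Positive signs were also frequent among smooth muscle genes (8 of 8, median 0.27) and fibroblast genes (6 of 6, median 0.06). They were found in 4 of 6 pericyte, 7 of 8 enteroendocrine and 4 of 7 macrophage genes, and in 0 of 8 absorptive enterocyte genes. The direction was thus not particular to blood endothelium. An unadjusted p under 0.05 was found for 12.2% of all tested genes, so 3 of 26 is no more than the background. The 3 were Gpihbp1, which carries lipoprotein lipase to the capillary surface, with 0.640 ± 0.0989 CPM in RetSat ko and 0.376 ± 0.111 CPM in control, Rgcc, a cell cycle regulator, with 3.54 ± 0.817 CPM in RetSat ko and 2.52 ± 0.449 CPM in control, and Ramp2, the partner of the adrenomedullin receptor, with 2.90 ± 0.658 CPM in RetSat ko and 2.22 ± 0.189 CPM in control (SD, n = 5 each). Their log2 fold changes were 0.76, 0.49 and 0.38, with edgeR adjusted p of 0.291, 0.332 and 0.390. Next by p were Icam2 (0.49) and Ackr1 (0.51). Without RetSat ko 1 all 26 were positive, against 54.7% of all genes tested in that fit (medians 0.27 and 0.03). Of the 26, 2 were higher there, Ramp2 and Rgcc (edgeR adjusted p = 0.04597 and 0.04997), where 4.45% of all genes passed. RetSat ko 1 was singled out for its low endothelial transcripts. A rise of these genes without it therefore follows from that choice, and the counts of that fit are a description. Without RetSat ko 4 and RetSat ko 5, 12 of 26 were positive (median -0.007), and without RetSat ko 2 the median was 0.04, so the size of the shift rests on which RetSat ko libraries are kept. The summed list was 47.6 CPM in RetSat ko 1 and 80.4 to 85.7 CPM in RetSat ko 2 to 5, against 61.5 to 76.4 CPM in control. Its gene S1pr1 was at 10.1 CPM in RetSat ko 2 and 4.51 CPM in control 4, against 1.63 to 3.21 CPM elsewhere. Icam2 was also highest in these libraries (2.23 and 1.38 CPM), which were the highest in B cell transcripts. The part of B cells in the sum was not tested, and S1pr1 was named after its values were seen.

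Of 15 lymphatic genes outside the 10, 14 were tested, 10 had a positive and 4 a negative log2 fold change (median 0.10), and 0 passed in edgeR, with 0 at an unadjusted p under 0.05. Those of smallest p were Nr2f2, a partner of PROX1 in lymphatic fate, with 0.20, Fgl2 with -0.24, Tbx1 with 0.38, Tspan18 with 0.29 and the chemokine scavenger gene Ackr2 with -0.29 (edgeR adjusted p 0.429 to 0.611). Of 20 genes of VEGF, angiopoietin and Notch signalling, 8 were positive and 12 negative (median -0.04), and 0 passed in edgeR, with 0 at an unadjusted p under 0.05. The Notch ligand gene Dll4, needed for lacteal regeneration in mouse, had 0.17, the growth factor gene Vegfb 0.24, the hypoxia-inducible factor genes Hif1a and Epas1 -0.24 and -0.34, and Angpt1 -0.25 (edgeR adjusted p 0.501 to 0.721). DESeq2 and limma-voom called 0 genes of these 3 lists.

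Markers of neighbouring cell types were measured beside the vessel genes, and 0 genes of these 11 lists passed in edgeR with all 10 libraries. Without RetSat ko 1 the enterocyte gene Sis, which encodes sucrase-isomaltase, was lower (log2 fold change -0.76, edgeR adjusted p = 0.0298), and without RetSat ko 1 and control 3 edgeR called Sis and the adipocyte gene Retn. Smooth muscle genes, whose cells wrap the lacteal, summed to 423.5 to 753.9 CPM in RetSat ko and 175.9 to 595.6 CPM in control, with control 3 lowest. Pericyte genes summed to 100.2 to 159.3 CPM in RetSat ko and 55.8 to 142.0 CPM in control, and fibroblast genes to 119.4 to 234.1 CPM in RetSat ko, with RetSat ko 1 lowest, and 160.6 to 216.8 CPM in control. Macrophage genes, a second source of Lyve1, summed to 48.2 to 76.4 CPM in RetSat ko and 52.8 to 81.5 CPM in control, and enteroendocrine genes, a second source of Prox1, to 460.0 to 604.1 CPM in RetSat ko and 424.4 to 507.8 CPM in control. Of the absorptive enterocyte genes, all 8 had a negative log2 fold change (median -0.33), with -0.58 for Sis and -0.53 for Lct. In edgeR 3 of the 8 had an unadjusted p under 0.05, against 12.2% of all tested genes. The parts of these cell types in the values of the vessel genes were not tested.

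Vwf lies on chromosome 6, as Retsat does, 52.9 Mb from it. Of 48 tested genes within 1 Mb of Vwf, 0 passed in edgeR with all libraries and 7 (14.6%) had an unadjusted p under 0.05, against 12.2% of all tested genes; DESeq2 called 1, Pianp. Pianp, a neuronal membrane protein gene, was at 1.18, 3.91, 3.92, 4.12 and 3.38 CPM in RetSat ko 1 to 5, against 1.59, 1.71, 1.25, 1.91 and 1.75 CPM in control 1 to 5. C1s2, a complement protease gene, was at 0.0392, 0.388, 0.326, 0.412 and 0.361 CPM in RetSat ko 1 to 5, against 0.0371, 0.108, 0, 0.0173 and 0.0184 CPM in control 1 to 5. In both, RetSat ko 1 held a control-like level and RetSat ko 2 to 5 lay above every control library. The CPM of Vwf was lowest of all in RetSat ko 1. Relative to Cdh5, Pecam1, Plvap and Kdr, however, Vwf in RetSat ko 1 overlapped the control range (1.70 over Cdh5, against 1.58 to 2.08 in control). In those ratios RetSat ko 2 to 5 lay below every control library. Whether these patterns share a source was not tested. Without RetSat ko 1, 6 of 50 tested neighbours passed in edgeR, where 4.45% of all genes did: C1rb, C1s2, Pianp and Cd9 higher (log2 fold changes 4.91, 3.27, 1.22 and 0.50) and Gapdh and Plekhg6 lower (-0.47 and -0.43), with adjusted p from 0.00601 to 0.0298. C1rb was not among the 48 genes tested with all libraries. C1s2 reached at most 0.108 CPM in control and lay higher in RetSat ko 2 to 5. The 6 calls are therefore a description and no test of the region. C1rb and C1s2 have close paralogs and Gapdh has many pseudogene copies, so their counts are uncertain. C1rb, Cd9, Gapdh and Plekhg6 were named after their values were seen. Whether the chromosome around Vwf differs in sequence or origin between the genotypes was not tested, and the Vwf difference is given with that limit.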

How the data were processed

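Gene counts of 10 jejunum libraries were analysed, 5 RetSat ko and 5 control, grouped by title. Deposited values are raw counts for each gene, in a file for each library. The submitters' processing notes name Trimmomatic, STAR and GRCm39, and per the file headers featureCounts 2.0.1 counted exons by gene in GENCODE M28, with no option for strand or read pairs. The sources do not say if reads were paired; if so, each fragment may have been counted for both mates, and a Poisson interval would be too narrow. The deposited exon length column gave levels per 1000 bases.

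Symbols were matched by identifier for 52081 of 55414 identifiers (94.0%). Counts were filtered with filterByExpr, TMM-normalized and tested in edgeR 4.0.16 (quasi-likelihood F-test, robust, R 4.3.3), with Benjamini-Hochberg adjustment over 18654 genes. Alternatives used DESeq2 1.42.0 and limma 3.58.1, other factors and filters, a replicate block, and libraries left out. The steps were also run on simulated counts with set fold changes. That simulation held no library set apart as RetSat ko 1 was, so it does not show how the fit treats such a library. No pair among the 45 of libraries was a duplicate (chi-square per degree of freedom at least 54.5).

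The genes and lists were chosen with earlier results of these data known. Named were the 10 genes, the 5 smallest p of the lymphatic, blood endothelial and VEGF lists, up to 2 of other lists, the 5 genes most alike to Lyve1, Cdh5 and Vegfa, and 2 neighbours of Vwf.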

Additional observations from a re-analysis of the deposited data

Results flagged for a closer look

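In groups of 5 libraries, the highest or lowest library was marked where its gap to the nearest other library exceeded 0.71 of the group's range (Dixon's test at 95%). This gave 10 marks over 50 groups, some of them on the same library. Chance marks about 1 in 20 groups. RetSat ko 1 was marked 3 times, each among the RetSat ko libraries: lowest for Plvap (23.8 CPM), lowest for the summed blood endothelium list (47.6 CPM) and highest for the summed absorptive enterocyte list (51696.6 CPM). Among the control libraries, control 4 was marked as the highest for Cdh5 (5.87 CPM) and for the summed B cell and follicle list (57.3 CPM), and control 3 as the lowest for Vwf (8.48 CPM), which was still above every RetSat ko library. RetSat ko 2 was marked as the highest of RetSat ko for the summed B cell and follicle list (133.0 CPM) and the summed pancreatic acinar list (2134.3 CPM). RetSat ko 5 was marked as the highest of RetSat ko for Retsat (33.4 CPM) and the summed hepatocyte list (125.9 CPM).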

How the results depend on the processing

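Over 23 alternatives, Vwf, Pecam1 and Cdh5 kept their direction in every one; Vwf ranged from -0.507 to -0.241 on the log2 scale, with adjusted p from 0.0366 to 0.977, and passed the threshold only in DESeq2, the 1 alternative in which 1 of the 10 genes was called. Pecam1 was as low as 0.005 without RetSat ko 2 and Cdh5 0.018 without RetSat ko 4 and RetSat ko 5. The other 7 genes lie near 0 and changed sign in 1 to 10 alternatives, with no call in any; the causes were not tested. Kdr was 0.011 with upper-quartile factors. With sample weights in limma-voom, Vegfc was 0.048, Kdr 0.064, Prox1 0.023 and Lyve1 0.053. Plvap was -0.001 with the replicate block. Without the acinar-rich libraries, Vegfc was 0.045, Kdr 0.313, Prox1 0.013 and Lyve1 0.014. Retsat (-4.51) was not called there (edgeR unadjusted p = 5.2e-05, adjusted p = 0.0918), and the reason was not tested. Without the B cell-rich libraries, Vegfc was 0.058, Lyve1 0.008 and Plvap -0.018. Chosen after seeing the data, leaving out RetSat ko 4 and RetSat ko 5 gave Vegfa 0.064, Flt4 -0.1 and Plvap -0.08, and leaving out RetSat ko 1 and control 3 gave Vegfc 0.076, Kdr 0.096, Prox1 0.156 and Lyve1 0.096, with 6 neighbours of Vwf called. With 1 library left out at a time, the log2 fold change ranged from -0.218 to 0.037 for Vegfa, -0.111 to 0.044 for Vegfc, -0.111 to 0.143 for Kdr, -0.202 to 0.059 for Prox1, -0.174 to 0.025 for Lyve1, -0.023 to 0.145 for Plvap, 0.013 to 0.234 for Flt4, 0.005 to 0.23 for Pecam1 and 0.103 to 0.321 for Cdh5; calls ranged from 0 to 2 among blood endothelial genes and from 0 to 6 among neighbours of Vwf, both highest without RetSat ko 1. The single libraries whose omission turned a sign were control 1 to 3 and RetSat ko 2 to 5 for Plvap, RetSat ko 2 and RetSat ko 4 for Vegfa, and those named above for the others. DESeq2 called 1 neighbour. Pairs of genes past the threshold numbered 1 without the 2 libraries farthest from the median of the first gene. Over all genes, calls numbered 6 in edgeR, 123 in DESeq2, 10 with sample weights, 4 with the replicate block, 9 without a filter, 4 with a filter of 1 CPM, 228 without RetSat ko 1 and control 3, and 846 without RetSat ko 1. Same-numbered libraries shared only a number (correlation of their deviations -0.26 to 0.02, and 0 of 5 control libraries closest to their own number), and with the replicate block 0 of the 10 genes was called, with Vwf at -0.41. Depth limits Prox1 most, with 50 to 174 reads per library.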
